A study of Homo sapiens with 36 samples.

Results

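To ask where Jun, JunB and JunD sit alone and where they sit together, the ChIP-seq peak lists of these 3 AP-1 proteins were compared within A549 cells. A peak was kept if it lay on chromosomes 1 to 22, X or Y and its summit fell in a 1-Mb bin that holds at least 1 annotated transcript start. This left 26217 JunB peaks, 35506 Jun peaks and 8871 JunD peaks, 70594 of the 476964 peaks in the whole series. Overlapping peaks of the 3 lists (1 bp or more) were joined into 41766 merged regions, and each region was named by the proteins whose peaks it holds.

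A549 is a human lung adenocarcinoma line, and B2B (BEAS-2B) is an immortalised, non-cancerous line from bronchial epithelium that served as an outside readout. Neither line carries a treatment in the labels, and each is 1 cell line rather than a set of donors. Every protein was pulled down with its own antibody, and the authors pooled its 2 replicates into a single call. There is therefore 1 list per protein and no replicate error, so no p-values were computed, and the 95% intervals below cover counting error only. The read depth behind each list is unknown, and differences in list length or in fold enrichment between proteins are not differences in the amount of protein on DNA.

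As a check of the line, the starts of the epithelial genes KRT8, KRT18, EPCAM and CDH1 had an H3K4me3 peak within 1 kb in A549, and that of KRT19 did not. Starts of the leukocyte genes PTPRC and CD3E and of the endothelial genes CDH5 and PECAM1 had none. CDKN2A and CDKN2B, which are known to be deleted in A549, held 0 peaks in the 7 A549 lists, and the neighbouring MTAP held 5. The bins left out for want of a start held 6.59% of the JunB peaks, 7.97% of the JunD peaks and 0.270% of the Jun peaks.

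AP-1 is a dimer of basic leucine zipper proteins. A Jun protein pairs with another Jun, with a Fos protein or with a member of the ATF family, and the pairing shifts its preference between the AP-1 site TGACTCA and the cyclic AMP response element (CRE) TGACGTCA. JUN and JUNB are classical immediate early genes induced by growth signals, whereas JUND is expressed more constantly. In epithelial cells AP-1 is known mainly as a factor of enhancers that serve adhesion, proliferation and stress response.

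A few summit sequences, chosen as examples, are printed here on the forward strand of hg38. Every TGACTCA or its reverse complement TGAGTCA, and every TGACGTCA, is in capitals. The first 4 come from regions of all 3 proteins: a cluster of AP-1 sites in an intron, an AP-1 pair between genes upstream of NANOS3, the promoter of the integrin gene ITGB1 and the promoter of the phosphatase gene DUSP1.
All 3, chr13:110965441-110965501: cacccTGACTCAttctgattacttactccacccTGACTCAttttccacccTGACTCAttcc
All 3, chr19:13851301-13851361: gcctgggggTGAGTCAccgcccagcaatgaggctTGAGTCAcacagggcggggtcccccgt
ITGB1 promoter, chr10:33005769-33005797: cggaTGACTCActgcgtttgcactgccgc
DUSP1 promoter, chr5:172771309-172771337: gcggTGACGTCAcccgccctgccaggcca

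The next 5 come from the highest-ranking regions that held a single protein. They show JunB alone upstream of the laminin gene LAMB3, JunB alone on a TA repeat upstream of GPNMB, Jun alone in an intron of SAXO2, and JunD alone at the starts of DTWD2 and COG2.
JunB alone, chr1:209653133-209653193: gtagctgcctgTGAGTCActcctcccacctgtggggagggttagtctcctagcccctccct
JunB alone, chr7:23231838-23231898: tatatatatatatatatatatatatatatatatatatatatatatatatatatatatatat
Jun alone, chr15:82263528-82263588: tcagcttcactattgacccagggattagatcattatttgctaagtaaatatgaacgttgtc
JunD alone, chr5:118988255-118988315: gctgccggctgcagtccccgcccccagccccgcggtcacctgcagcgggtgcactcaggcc
JunD alone, chr1:230642350-230642410: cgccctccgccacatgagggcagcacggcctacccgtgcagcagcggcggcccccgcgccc
The windows of all 3 each carry an AP-1 site, in 2 of the 4 more than 1, or a CRE, whereas the JunD windows are rich in G and C and hold neither motif. These windows are not typical of every region of all 3. Across that combination, TGACTCA lay within 50 bp of the summit at 28.9% of regions near starts and 62.2% of those far from them. The CRE lay at 9.21% and 0.885%.

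Next, the combinations were counted. In these lists of unequal length, Jun peaks covered the most regions and JunD was rarely found by itself. Regions of Jun alone made up 34.7% of all merged regions (14506, interval 34.3 to 35.2%), and regions of JunB with Jun made up 32.0% (13363). All 3 proteins shared 6613 regions, or 15.8% (interval 15.5 to 16.2%), and JunB was alone at 5603 regions, or 13.4%. JunD alone accounted for 744 regions (1.78%), Jun with JunD for 583 (1.40%) and JunB with JunD for 354 (0.848%).

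**Figure D1:**
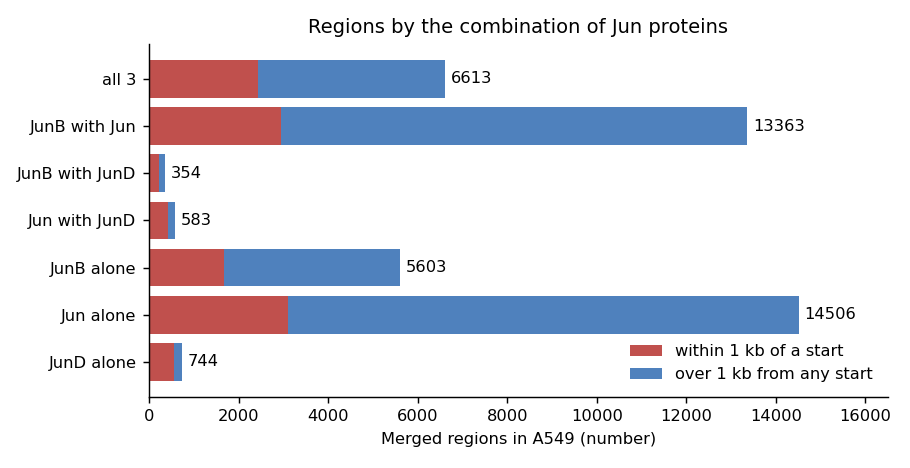
Number of merged A549 regions (horizontal axis) for each combination of JunB, Jun and JunD (rows), split into regions within 1 kb of a transcript start (red) and farther away (blue), with the total at the end of each bar. Jun alone (14506) and JunB with Jun (13363) are the longest bars and lie mostly far from starts, whereas the short bars with JunD but without Jun or without JunB are mostly red.

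Seen from single peaks, JunD was nested in the other lists. Of the JunD peaks, 86.5% overlapped a Jun peak and 84.0% a JunB peak, a paired difference of 2.46 percentage points (interval 1.72 to 3.20) that turned to -2.68 when the bins without a start were kept. JunB peaks overlapped Jun in 77.2% and JunD in 26.9%, and Jun peaks overlapped JunB in 57.5% and JunD in 20.7%. They also depend on how much overlap is asked for: with 50% of both peaks required, 35.8% of JunD peaks overlapped Jun and 34.6% JunB. The shares depend on list length too, since the Jun list is the longest and the JunD list the shortest. With all lists cut to the length of the JunD list by their p-values, all 3 proteins shared 28.8% of the regions and the share of JunD alone rose to 19.8%.

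Where the 3 proteins met, their summits lay close together. Over regions of all 3 more than 1 kb from a start, the median distance was 17 bp between JunB and Jun, 19 bp between Jun and JunD and 21 bp between JunB and JunD. In 88.7%, 86.4% and 82.4% of these regions, respectively, the pair lay within 50 bp. Within 1 kb of a start the summits were farther apart, with medians of 27, 30 and 36 bp in the same order of pairs. The fold enrichments also rose together across the far regions of all 3, with a Spearman correlation of 0.72 between Jun and JunD, 0.56 between JunB and JunD and 0.51 between JunB and Jun. Near starts the order was different, with 0.76 between JunB and Jun, 0.59 between Jun and JunD and 0.57 between JunB and JunD. These correlations run across 4180 far and 2433 near regions, within which all values of a protein come from 1 pooled list, and are given as a description.

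To examine strength, the peaks of each list were ranked by the deposited fold enrichment, which is the ratio of the signal at the summit to the local background, and divided into 10 equal classes, numbered from 1 for the weakest to 10 for the strongest. JunD peaks were found mainly at the strongest JunB and Jun peaks. In class 10 of the JunB list, 85.8% of the peaks overlapped JunD, compared with 13.6% in class 1, a difference of 72.2 percentage points (interval 70.3 to 74.0). In class 10 of the Jun list the share was likewise 85.8%, compared with 13.9% in class 1, a difference of 71.9 points (interval 70.2 to 73.4). The rise was steep and late. JunD met 29.5% of the JunB peaks in class 8, 53.1% in class 9 and 85.8% in class 10, and 19.2%, 41.97% and 85.8% of the Jun peaks. The overlap of JunB with Jun climbed more evenly, from 50.7% to 99.7% over the JunB list and from 34.3% to 96.8% over the Jun list, with a dip to 29.4% in class 2 of the Jun list.

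**Figure D2:**
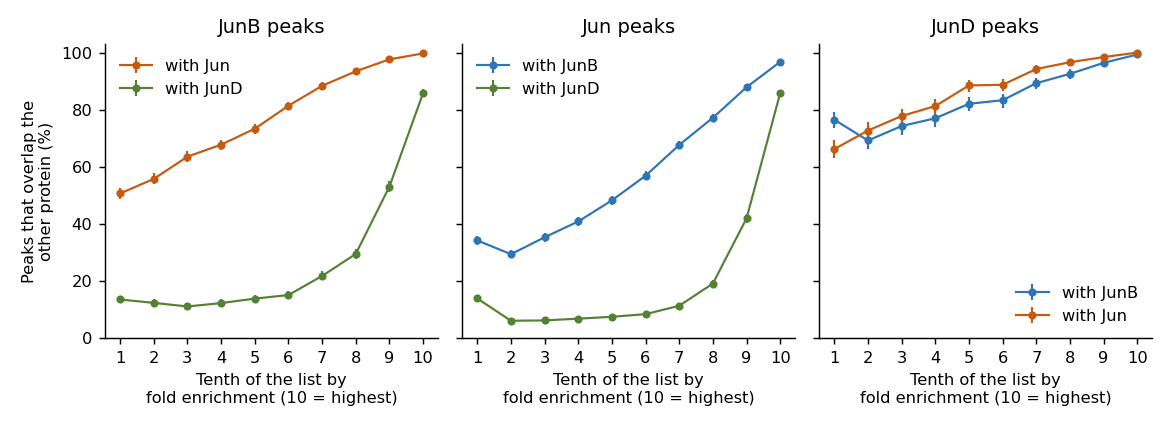
Share of peaks that overlap a peak of another Jun protein (vertical axis, percent) by strength class of the list ordered by fold enrichment (horizontal axis, 10 is the highest), for JunB, Jun and JunD peaks, with Wilson 95% intervals. The share with JunD stays at or below 21.8% through class 7 of the JunB and Jun lists and reaches 85.8% in class 10, whereas JunD peaks overlap JunB or Jun in at least 66.2% of every class.

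By region, all 3 together held the strongest Jun and JunB peaks, but the pairs with JunD did not. The median Jun percentile, where 100 is the strongest peak of the list, was 88.4 at regions of all 3, 57.5 at regions of JunB with Jun, 32.6 at Jun with JunD and 31.7 at Jun alone. The median JunB percentile was 82.8 at all 3, 50.3 at JunB with Jun, 25.4 at JunB alone and 20.4 at JunB with JunD. For JunD the contrast was smaller, with 59.1 at regions of all 3 and 25.5 where JunD was alone, and 0 of the 744 JunD regions without the others came from its strongest class, which allows a share of up to 0.403%. The medians above mix near and far regions. Far from starts, the median Jun percentile was 72.3 at the 157 regions of Jun with JunD. It was 91.8 at all 3, 59.8 at JunB with Jun and 34.4 at Jun alone. The far median JunB percentile was 47.5 at JunB with JunD and 53.1 at JunB with Jun. The strongest peaks were also the farther ones. Within 1 kb of a start lay 21.5% of the strongest and 48.0% of the weakest class of JunB peaks, 18.1% and 41.7% of Jun peaks, and 24.4% and 47.4% of JunD peaks.

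The combinations differed in their distance to transcript starts, and JunD set the regions near starts apart. Of all peaks, 43.9% of JunD (interval 42.8 to 44.9%), 28.3% of JunB (27.7 to 28.8%) and 25.6% of Jun (25.2 to 26.1%) lay within 1 kb of a start. JunD alone was near a start in 75.3% of its regions (interval 72.0 to 78.2%), Jun with JunD in 73.1% and JunB with JunD in 62.7%. By contrast, JunB with Jun was near a start in 22.1%, Jun alone in 21.4%, JunB alone in 29.8% and all 3 in 36.8%. Regions of JunD without Jun exceeded regions of Jun without JunD by 49.5 percentage points (interval 46.7 to 52.1), which became 22.7 points (20.3 to 25.1) with the bins lacking a start kept, and regions of JunD without JunB exceeded those of JunB without JunD by 49.9 points (47.4 to 52.3). JunB and Jun differed far less. JunB without Jun exceeded Jun without JunB by 8.31 points (6.95 to 9.67), a difference that shrank to 1.02 points (-0.141 to 2.202) with the bins lacking a start kept and to 0.399 points (-1.61 to 2.41) with lists of equal length.

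The median distance to a start was 133.5 bp for JunD alone, 128 bp for Jun with JunD and 231 bp for JunB with JunD. It was 3799 bp for all 3, 5523 bp for JunB alone, 6616 bp for JunB with Jun and 6781 bp for Jun alone. Beyond 1 kb, JunB with Jun and Jun alone lay mostly in introns, in 60.9% and 62.3% of their far regions. The few far regions of JunB with JunD and of JunD alone lay between genes in 81.1% and 69.6%. Near starts, the median GC content within 100 bp of the summit was 72.9% for JunD alone, 72.6% for JunB with JunD, 69.7% for Jun with JunD, 65.2% for both all 3 and JunB alone, 57.2% for JunB with Jun and 54.2% for Jun alone.

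To relate the combinations to active promoters and enhancers, the A549 lists of H3K4me3, H3K27ac, the Mediator subunit Med1 and RNA polymerase II (Pol II) were laid over each region, within 250 bp of its strongest summit. H3K4me3 marks promoters, and H3K27ac and Med1 mark active enhancers and promoters. Only chromosomes 1 to 12 were used (29015 regions), because the H3K27ac, Med1 and Pol II lists of A549 end before the last chromosome. Far from starts, regions of all 3 carried these marks far more often than regions of Jun alone. Med1 was found at 48.2% of them and at 5.68% of Jun alone, a difference of 42.5 percentage points (interval 40.7 to 44.4). Pol II was found at 67.3% and 15.4%, a difference of 51.9 points (50.01 to 53.8), and H3K27ac at 36.3% and 8.04%, a difference of 28.2 points (26.4 to 30.1). H3K4me3 followed with 33.3% and 10.2%.

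JunB with Jun lay in between, with Med1 at 13.9%, Pol II at 32.8% and H3K27ac at 19.2% of its far regions. All 3 exceeded this pair by 34.4 points for Med1 (interval 32.4 to 36.3). Of the far regions of Jun alone, 78.9% had none of the 4 marks, compared with 61.5% for JunB alone, 58.2% for JunB with Jun and 24.7% for all 3. Far regions of JunD alone were few (92) but marked, with Med1 at 59.8% (interval 49.6 to 69.2%) and H3K27ac at 45.7% (35.9 to 55.8%).

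Near starts the marks were common in every combination, and those with JunD stood highest. JunD alone had H3K4me3 at 97.4% of 348 regions, H3K27ac at 97.4%, Pol II at 97.1% and Med1 at 93.7%, and all 4 together at 93.1%. For all 3 proteins the 4 marks coincided at 82.7%, for JunB alone at 67.1% and for Jun alone at 50.6%. Near regions of Jun alone had lower shares, with H3K4me3 at 69.3%, Pol II at 69.1%, H3K27ac at 63.7% and Med1 at 53.7%. JunB alone exceeded Jun alone near starts by 18.0 points for Med1 (interval 14.6 to 21.3), which became -0.436 points with lists of equal length.

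**Figure D3:**
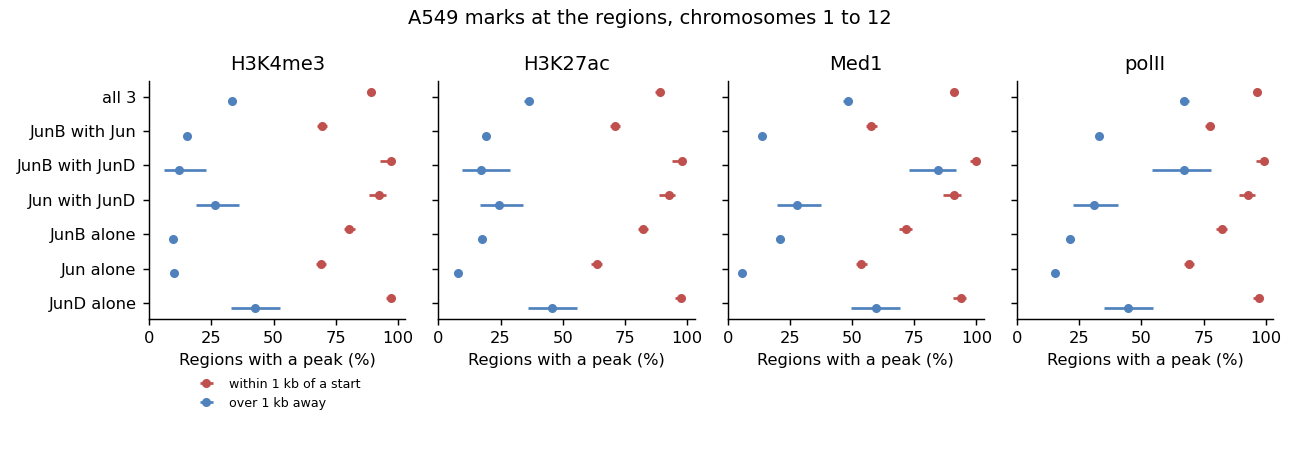
Share of regions (horizontal axis, percent) with a peak of H3K4me3, H3K27ac, Med1 or polII within 250 bp, by combination of Jun proteins (rows), within 1 kb of a start (red) and farther away (blue), chromosomes 1 to 12, with Wilson 95% intervals as bars. Near starts every combination with JunD lies at or above 88.9% for all 4, and far from starts all 3 proteins together have Med1 at 48.2% of regions and Jun alone at 5.68%.

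JunB with JunD far from starts was an exception in its marks, with Med1 at 84.5% of 58 regions, H3K27ac at 17.2% and Med1 without H3K27ac at 69.0%. Sequence composition moved with this result. Of the 132 such regions on all chromosomes, 38 (28.8%) held at least 3 copies of GGAAT on the same strand within 50 bp of the summit, and so did 5.06% of the far regions of JunB alone, 7.61% of JunD alone, 1.22% of all 3 and 0.219% of Jun alone. In the 26 repeat regions of JunB with JunD on chromosomes 1 to 12, Med1 was present at 25 and H3K27ac at 0, and in the other 32 regions Med1 was present at 75% and H3K27ac at 31.3%. A further 8.74% of the far regions of JunB alone (344), but 0.5001% of those of Jun alone, held a run of at least 20 bp of a single dinucleotide, as in the window near GPNMB above. With both kinds of repeat region left out, 62 of 63 recomputed differences between combinations kept their interval above, below or across zero. The exception was the far AP-1 share of all 3 minus JunB with Jun, which went from 1.11 points (interval -0.639 to 2.85) to 1.86 (0.0989 to 3.598). JunB alone fell to 12.3% of all regions.

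The motifs under the summits set regions of JunD without Jun apart, but not far JunD peaks as a whole. Near starts, 17.0% of JunD peaks held 1 TGACTCA within 100 bp, compared with 25.9% of Jun and 29.0% of JunB peaks. Among far JunD peaks, 45.4% held 1 TGACTCA within 100 bp and 12.4% held 2 or more. The shares were 46.4% and 7.23% for far Jun peaks, and 55.7% and 8.36% for far JunB peaks. Far from starts, TGACTCA lay within 50 bp of the summit at 62.2% of regions of all 3 (interval 60.7 to 63.7%), 61.1% of JunB with Jun (60.2 to 62.0%), 45.2% of JunB alone (43.7 to 46.8%) and 32.1% of Jun alone (31.2 to 33.0%). The far difference of 13.1 points between JunB alone and Jun alone shifted with the settings, to 1.76 points (interval 0.228 to 3.31) with the bins lacking a start kept, 8.68 with a 25-bp motif window, 19.9 without simple repeats and 39.6 with lists of equal length. In windows shifted by 2 kb to either side, the site was found in 1.58 to 1.75% across the same 4 combinations. At regions of JunD without Jun, by contrast, it was all but absent: 1 of 782 regions near starts (0.128%) and 1 of 316 far regions (0.316%) held the site. Regions of Jun without JunD held it in 26.8% near starts and 46.0% far from them, so that JunD without Jun minus Jun without JunD came to -26.7 percentage points near starts (interval -27.9 to -25.5) and -45.6 far from them (-46.3 to -44.04). The far difference was -26.8 points (-29.9 to -23.5) with lists of equal length and -33.0 with summits within 100 bp, so its size rests on list length and overlap rule.

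The site was also counted within each list by strength. The weakest class of JunB peaks had it in 20.4% and the weakest class of Jun peaks in 19.4%. Among JunD peaks in the lower 50% of their own list, 41.1% of far peaks that overlapped Jun held the site and 0.322% of far peaks that did not (1 of 311). In the upper 50%, the site lay at 65.6% of far peaks with Jun and at 0 of 52 without it, which allows a share of up to 5.77%. Far JunD peaks without JunB held the site in 4.49% of the lower and 11.4% of the upper 50%, compared with 39.5% and 66.6% of those with JunB. In the lower 50% of the Jun list, 4.19% of far peaks with JunD held TGACTCA and 41.6% of those without JunD. In the lower 50% of the JunB list the shares were 18.1% with JunD and 47.8% without. Far peaks in the upper 50% of the Jun and JunB lists went the other way or showed no gap. The site lay at 63.5% of far Jun peaks with JunD against 50.2% without, and at 67.0% of far JunB peaks with JunD against 66.9% without. Near starts, the upper 50% of the JunB list had it in 46.7% with JunD and 60.4% without. For near Jun peaks of the upper 50% the shares were 37.8% and 39.5%.

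Near starts the AP-1 site was less frequent in every combination that had it far from starts. It was found at 38.2% of JunB with Jun, 28.9% of all 3, 16.1% of Jun alone and 15.8% of JunB alone. The last pair differed by -0.260 points (interval -2.40 to 1.96), which turned to 3.84 points (1.40 to 6.38) for peaks with a −log10 q of at least 5 and to 51.2 points with lists of equal length. The CRE lay at 9.21% of near regions of all 3 (interval 8.12 to 10.4%), 3.51% of Jun alone and 3.49% of JunB with Jun, but at 0.420% of JunB alone and at 0 of 560 regions of JunD alone, which allows a share of up to 0.536%. All 3 exceeded Jun alone by 5.70 points (4.40 to 7.05), and by 2.52 points with lists of equal length, where the interval reached zero. JunB alone minus Jun alone came to -3.09 points (interval -3.83 to -2.35), so those near regions differed in the CRE, whereas their AP-1 difference spanned zero.

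At near regions of JunD alone the GC box GGGCGG, the binding site of SP-family factors, lay at 47.1% and the ETS site CCGGAAG at 6.25%. At near regions of all 3 the same motifs lay at 34.0% and 6.49%, and at those of Jun alone at 21.5% and 4.15%. Across 35116 RefSeq promoters of 300 bp (hg38), the GC box lay in 45.0%, the ETS site in 10.3%, the CRE in 1.85% and TGACTCA in 4.95%. The windows here are shorter, so those shares are not on the same scale. Far from starts, a pair of other motifs was more frequent with Jun than with JunB alone. The C/EBP site TTGCNNAA lay at 12.9% of Jun alone, 13.1% of all 3 and 4.35% of JunB alone (5.22%, 4.86% and 4.54% in windows 2 kb away), and the FOX site TGTTTAC at 7.02%, 6.29% and 1.63%. The antioxidant response core TGACNNNGC, which can overlap TGACTCA, lay at 10.9% of far regions of all 3 and at 8.01% of JunB alone and 7.12% of Jun alone. For TEAD (GGAATG) the shares of JunB alone and Jun alone were 12.5% and 12.9%, against 8.86% and 5.31% in windows 2 kb away. GGAATG contains the GGAAT of the repeats above, which were more frequent at JunB alone. How far the repeats add to its shares was not tested. For E-boxes (CACGTG) the shares of JunB alone and Jun alone were 1.52% and 1.62%. They were 1.88% and 2.15% for RUNX (TGTGGTT), and 0.0254% and 0.0175% for NRF1 (CGCATGCG).

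**Figure D4:**
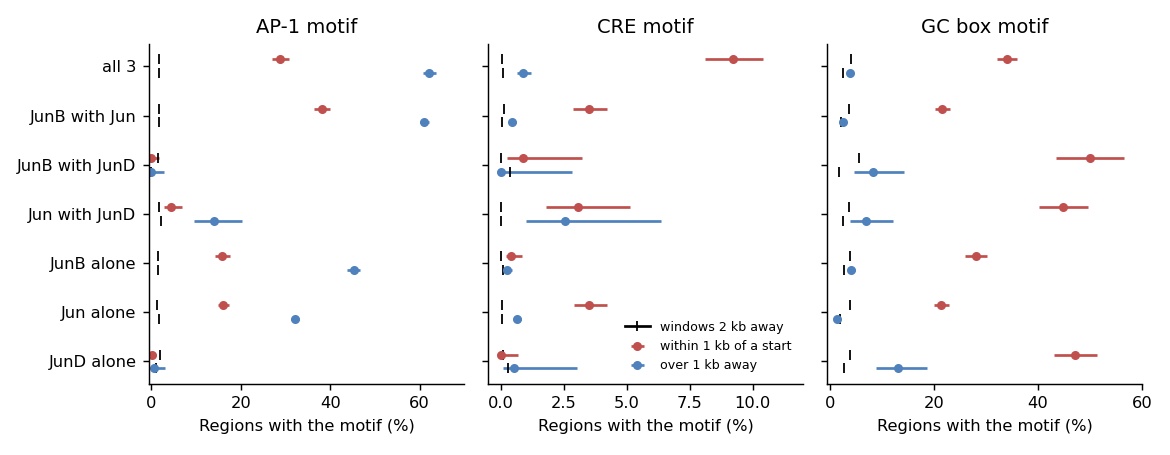
Share of regions (horizontal axis, percent, each panel with its own range) with the AP-1 site TGACTCA, the CRE TGACGTCA or the GC box GGGCGG within 50 bp of the summit on either strand, by combination (rows), within 1 kb of a start (red) and farther away (blue), with Wilson 95% intervals as bars and the share in windows 2 kb away as black ticks. The AP-1 site lies at 62.2% of far regions of all 3 and at 0.543% of far regions of JunD alone, and the GC box at 47.1% of near regions of JunD alone.

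The site was also centred on the summits. In peaks with TGACTCA within 100 bp, its middle lay a median of 16 or 17 bp from the summit in all 3 lists, and 57.4 to 59.1% of these peaks had it within 20 bp. Far JunD peaks held 2 or more sites more often (12.4%) than far JunB (8.36%) and far Jun peaks (7.23%). The site grew more frequent with strength, from 20.4% of the weakest to 80.01% of the strongest class of JunB peaks, from 19.4% to 59.8% for Jun and from 8.11% to 73.1% for JunD.

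The mark lists were then read from their own side. Of 14000 A549 H3K4me3 peaks that overlapped Pol II on chromosomes 1 to 12, 15.2% met all 3 Jun proteins, 16.5% JunB with Jun, 10.0% Jun alone, 4.69% JunB alone and 1.52% JunD alone, and 49.5% met none. Of 1230 distal H3K27ac peaks with Med1, without H3K4me3 and over 1 kb from a start, 24.1% met all 3 (interval 21.8 to 26.6%), 31.3% JunB with Jun, 7.80% JunB alone, 5.77% Jun alone and 0.407% JunD alone, and 30% met none. The intervals of JunD alone, 1.33 to 1.74% at the promoter peaks and 0.174 to 0.948% at the distal peaks, did not overlap.

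To ask which genes these promoters serve, a protein-coding gene was counted as bound by a protein if a summit lay within 1 kb of any of its starts. Of 20033 genes, 25.8% had a JunB peak, 31.3% a Jun peak and 15.7% a JunD peak, and 11.4% had all 3 (2289 genes). At 2117 of these (92.5%) a merged region of all 3 had its point within 1 kb of a start, and at the other 172 the peaks came from separate regions or from a region whose point lay farther away. A further 9.86% had JunB with Jun, 8.09% Jun alone, 3.499% JunB alone and 1.38% JunD alone (277 genes). With lists of equal length the order turned, with Jun minus JunD at -9.04 percentage points (interval -9.50 to -8.57), JunB minus JunD at -9.05 and Jun minus JunB at 0.00998 (-0.271 to 0.291). The lists below are described by counts beside these shares of all genes, and no set test was run.

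The genes of the AP-1 family itself were bound often. Of 17 Jun, Fos, ATF and small Maf genes, 9 had promoter peaks of all 3 proteins, among them JUN, JUND, FOS, FOSB, FOSL1 and ATF3. At JUN (chr1:58776845-58784048), the Jun peak had a fold enrichment of 47.4 (percentile 97.6 of the Jun list), the JunB peak 11.03 (percentile 76.7) and the JunD peak 7.83 (percentile 79.8), and the 3 summits lay 20 to 51 bp upstream of a start. At JUND (chr19:18279694-18281622), the values were 52.8 for Jun (percentile 98.4), 14.1 for JunB (percentile 85.4) and 9.49 for JunD (percentile 88.2). Neither promoter held the exact string TGACTCA within 50 bp of a summit, and variant sites were not counted. JUNB (chr19:12791486-12793315) differed from both. It had a JunB peak only, 977 bp upstream of its start and weak (fold 5.22, percentile 22.7), and no Jun or JunD summit within 1 kb. The peaks at FOS were weaker than those at JUN and JUND, at percentile 34.4 for Jun, 41.7 for JunB and 30.8 for JunD.

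Genes of growth signalling were bound more often than the shares of all genes. Of 18 immediate early genes, which respond to growth signals without new protein synthesis, 15 had JunB, 13 Jun and 8 JunD, and 7 had all 3. Among these, KLF10 and KLF4 held the AP-1 site at all 3 summits, with Jun at folds of 40.2 and 23.05. KLF6, a zinc finger transcription factor, had Jun at fold 68.4 (percentile 99.6), and BTG2 had Jun at 41.3. Of 14 MAPK feedback inhibitors, 12 had Jun, 9 JunD and 8 JunB, and 7 had all 3. DUSP1, a phosphatase that inactivates MAP kinases, had Jun at fold 42.4 (percentile 96.5), JunB at 12.4 and JunD at 8.12, over the CRE printed above. At DUSP5, another member with all 3, Jun stood only at percentile 41.2.

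NRF2 target genes, which serve the antioxidant response, had the highest share of all 3 among the lists, 15 of 25 (60%, interval 40.7 to 76.6%). JunB and Jun lay at 21 of these each and JunD at 17. The transporter gene ABCC3 had JunB at fold 32.1 (percentile 98.7), Jun at 31.5 (percentile 92.1) and JunD at 9.59 (percentile 88.8), each with TGACTCA within 50 bp. The aldo-keto reductase genes AKR1B10 and AKR1C3 had weaker JunD peaks, at 4.01 and 5.35.

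Adhesion and protease genes, classical AP-1 targets, more often carried JunB with Jun than all 3. Of 20 integrin and laminin genes, 14 had JunB, 13 Jun and 5 JunD, and 7 had JunB with Jun but not JunD. ITGB1, which encodes a beta subunit shared by many integrins, was among the 4 with all 3, with JunB at fold 47.1 (percentile 99.8), Jun at 48.4 (percentile 97.8) and JunD at 13.3 (percentile 96.3), all within 18 bp of a start and over the AP-1 site printed above. Of 17 urokinase and metalloproteinase genes, 7 had JunB, 6 Jun and 1 JunD, and 5 had JunB with Jun only. The urokinase receptor gene PLAUR was the member with all 3, and MMP7, a matrix metalloproteinase, had JunB alone at fold 7.54 over TGACTCA.

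Receptor, lineage and cytokine genes differed in their share of all 3. All 3 proteins were found at 7 of 18 growth factor receptor and EGF-type ligand genes, including AXL, ERBB2, ERBB3 and FGFR1, at 4 of 18 lung and endoderm regulators, namely CEBPA, CEBPB, FOXA2 and KLF5, and at 5 of 19 cytokine and NF-kB feedback genes, including CXCL2, CXCL8, NFKB2 and NFKBIA. At CXCL8, which encodes the neutrophil chemokine interleukin-8, Jun had a fold of 34.1 (percentile 93.4) over TGACTCA. EGFR had no Jun-family summit within 1 kb of a start, but 14 regions within 50 kb of its starts, 3 of them with all 3 proteins.

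Housekeeping genes varied too. Jun lay at 24 of 31 proteasome genes, 43 of 86 cytosolic ribosomal protein genes and 31 of 78 mitochondrial ribosomal protein genes, and all 3 at 6 (19.4%), 16 (18.6%) and 10 (12.8%) of these, the last close to the 11.4% of all genes. At PSMB1 the Jun fold was 6.01 (percentile 18.7) and at RPL13 the JunB fold was 3.54 (percentile 1.46). Other housekeeping peaks were stronger, with Jun at fold 22.9 (percentile 85.5) at RPL21 and JunB at percentile 71.4 at PSMD11. Of 69 replication-dependent histone genes, 25 had Jun (36.2%), 14 JunB (20.3%) and 6 all 3 (8.70%), the last 2 shares below those of all genes. Neighbouring histone genes share regions, so that H2AC20, H2AC21 and H2BC21 were called from the same peaks. Tissue-restricted and clustered genes were lowest, with all 3 at 11 of 246 zinc finger genes of chromosome 19, and 2 of 415 olfactory receptor genes with Jun (OR1F1 and OR4K5) and 0 with JunB or JunD. Of 611 oncogenes in the study's supplementary list, 294 had Jun, 258 JunB and 170 JunD, and 135 (22.1%) had all 3, among them ABI1, ACVR1, AFF1 and AFF4.

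**Figure D5:**
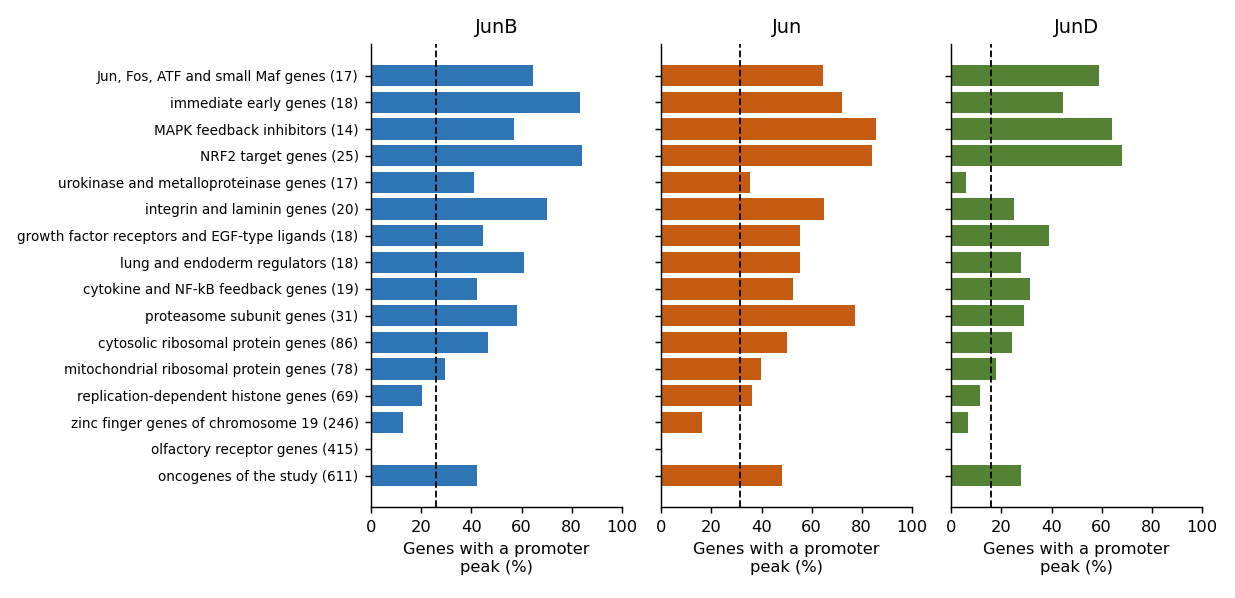
Share of the genes of each list (rows, number of genes in brackets) with a summit of JunB, Jun or JunD within 1 kb of a start (horizontal axis, percent), with the share of all 20033 protein-coding genes as a dashed line (25.8% for JunB, 31.3% for Jun and 15.7% for JunD). NRF2 target genes reach 84.0% for JunB and Jun and 68.0% for JunD, whereas urokinase and metalloproteinase genes reach 41.2%, 35.3% and 5.88%.

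Among the genes with published browser tracks, HSP90AB1, SDHAF2, SRC, KLF6 and FGFR1 had promoter peaks of all 3, and EGFR and POU5F1 had none. Of 4 further genes with such tracks, added here after their values were seen, GOLGA5 had all 3, MSH6 JunB alone, and PAX7 and GMPS none. At HSP90AB1, which encodes a heat shock protein, the Jun fold was 12.95 (percentile 66.3), JunD 5.65 and JunB 5.25. SDHAF2, an assembly factor of succinate dehydrogenase, had weak peaks with Jun at 7.74, JunB at 4.61 and JunD at 4.04. Its JunD summit lay 499 bp upstream of a start, apart from those of Jun and JunB, and 0 regions of all 3 lay within 50 kb, so the proteins did not sit together there. At the kinase gene SRC, Jun stood at 13.2, JunB at 10.0 and JunD at 5.58.

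A few genes had many regions of all 3 around them. The counts were not adjusted for the length of a gene or its number of starts, which widen the sequence covered. Within 50 kb of a start, 64.6% of protein-coding genes had none and 0.849% had 5 or more. PDE4D, a cyclic AMP phosphodiesterase gene, had 13 such regions among 65, with 0 of the 13 near a start. SMAD3, a transducer of TGF-beta signals, and HM13 had 10 each, SCARB1, ERCC1, FOSB and ID1 had 9, and MYO1E and the epithelial keratin gene KRT8 had 8. ERCC1 and FOSB are neighbours and share regions, as HM13 and ID1 lie close on chromosome 20. CCDC200 led the count with 14, all of them near a start and all nearest to a U2 small nuclear RNA gene of the tandem array beside it. Near-identical copies share reads, so the number of bound copies there is uncertain.

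Finally, the same regions were looked up in B2B, a readout that the naming of combinations did not use. Far from starts, 75.8% of A549 regions of all 3 had a Jun-family peak in B2B within 250 bp of the summit (interval 74.5 to 77.1%), compared with 60.2% of JunB with Jun, 37.6% of Jun alone and 37.5% of JunB alone. All 3 exceeded Jun alone by 38.2 percentage points (36.6 to 39.8), JunB alone by 38.4 and JunB with Jun by 15.6. With lists of equal length these became 21.2, 15.7 and 4.51 points. Near starts the shares were 42.1% for all 3, 40.6% for JunB with Jun, 26.0% for Jun alone and 10.1% for JunB alone. Far regions of JunB with JunD had a B2B Jun-family peak in 31.1% (41 of 132) and those of JunD alone in 9.78%. Of near regions of JunD alone, 1.07% had a B2B Jun-family peak (6 of 560), and of those of JunB with JunD, 0 of 222 did, which allows a share of up to 1.35%.

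For the architectural factor CTCF and for Rad21, part of the cohesin ring, lists of B2B were used. Near starts, a B2B Rad21 peak lay at 89.5% of regions of JunD alone (interval 86.6 to 91.7%), 89.0% of Jun with JunD, 72.2% of all 3 and 44.9% of Jun alone. B2B CTCF lay at 39.7% of near regions of all 3 and 28.9% of those of Jun alone. Far from starts, B2B CTCF lay at 42.8% of regions of all 3 and at 15.7% of Jun alone, a difference of 27.1 points (25.5 to 28.8). B2B Rad21 lay at only 15.7% and 5.79% of the same far regions, so most of those with CTCF had no Rad21 peak. Near regions of JunD alone in A549 thus mostly had a Rad21 peak in B2B and rarely a Jun-family peak.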

How the data were processed

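JunB, Jun and JunD were measured by ChIP-seq in A549 cells. Per the methods of the study and the submitters' processing notes, the authors aligned reads to hg38 with Bowtie2 2.4.4, processed them with SAMtools 1.13, merged the 2 replicates of each target and called peaks with MACS2 2.2.7.1. Peak calling options are not given in the sources used here. The deposited fold enrichment of each peak is a ratio of summit signal to local background, and the authors gave the significance as −log10 of p-values and q-values. Percentiles of fold enrichment were taken within a list.

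Starts came from GENCODE release 44. Lists were intersected and counted in Python 3.11.15 with NumPy 2.4.6 and SciPy 1.17.1 (Wilson and Newcombe 95% intervals), hg38 sequence came through pysam 0.24.0 (index by samtools 1.23.1), and Matplotlib 3.10.9 made the plots. Overlaps were tested on simulated data against bedtools 2.31.1. The point of a region is the summit of its peak with the highest fold enrichment. This compares folds between lists, and Jun folds run higher, so the point was Jun's summit in 89.2% of regions of all 3, 81.0% of JunB with Jun and 84.9% of Jun with JunD. A motif counted on either strand within 50 bp and only as the exact string given, with N as any base, so variant sites were not counted. Depth is unknown, since the lists give no read counts, and where a count was 0 the limit is 3 counts of the total.

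Named regions were the 3 with the highest product of percentiles among regions of all 3 and the 2 highest of each protein alone, near and far apart. Named genes were up to 4 per list, those with all 3 first by symbol, the 10 with the most regions of all 3 within 50 kb, the 3 JUN genes and 7 of the genes whose tracks the study shows. From these, the text gives those that its comparisons turn on. Members, lists and rules were chosen with earlier results of these data known. The study's supplementary oncogene list holds 618 symbols, more than its text states, and 611 matched a protein-coding gene. Simple repeats and the comparison of peaks with and without a second protein by strength were added after the sequences were seen. Alternatives were a −log10 q of at least 5, lists of equal length, summits within 100 bp, all bins kept, 50% overlap, 3 kb, protein-coding starts, marks over whole regions, stricter mark peaks and a 25-bp motif window, plus a fold enrichment of at least 3 and regions without simple repeats, both added later.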

Additional observations from a re-analysis of the deposited data

How the results depend on the processing

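Of 534 recomputed differences under 12 alternatives, 510 kept their interval above, below or across zero. The settings were unequal in this. With lists of equal length, 63 of 75 differences kept theirs, whereas 7 came to reach zero, 1 ceased to and 4 changed sign. With both settings of the marks, 32 of 32 kept theirs. Where an interval crossed zero in both settings, a change of sign was not counted. No paired analysis was possible because the replicates were merged before peak calling and the lists carry no replicate, and for the same reason no replicate could be left out. Combination shares follow list length and overlap rule. In the order bins kept, equal lengths, −log10 q of at least 5 and summits within 100 bp, Jun alone took 33.1, 15.2, 35.9 and 35.6% of regions, JunB alone 15.8, 17.1, 12.8 and 15.7%, all 3 took 15.2, 28.8, 14.8 and 13.3%, and JunD alone 2.17, 19.8, 1.26 and 3.74%. Without simple repeats, Jun alone took 35.2% and JunB alone 12.3%. Genes with all 3 at their promoter came to 13.6% at 3 kb, 3.93% with equal lengths and 9.16% at the stricter q. With equal lengths the promoter share of Jun minus JunB was 0.00998 points, that of Jun minus JunD -9.04 and that of JunB minus JunD -9.05, JunB without Jun exceeded Jun without JunB near starts by 0.399 points, the near AP-1 share of JunB alone minus Jun alone was 51.2 points (3.84 at the stricter q) and their near Med1 difference -0.436. With bins kept, JunD peaks overlapped Jun less often than JunB (-2.68 points), and JunB without Jun exceeded Jun without JunB near starts by 1.02 points. With summits within 100 bp, H3K4me3 at far regions of JunB alone minus Jun alone turned to 1.51 points. The cause of these changes was not tested.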
